A study of Homo sapiens with 24 samples.

Results

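The polyamine genes considered here were 10 genes that make, break down or regulate putrescine, spermidine and spermine: ODC1, AMD1, SRM, SMS and AZIN1 on the synthesis side, and SAT1, SMOX, PAOX, OAZ1 and OAZ2 on the side of acetylation, oxidation and antizyme. Members were the probe sets of the HG-U133 Plus 2.0 microarray whose single gene symbol in the platform annotation was one of these 10, which gave 22 of 41097 probe sets with 1 symbol, 8 on the synthesis side and 14 on the other side. A further probe set carried the symbols of both SAT1 and ZSWIM8 and was left out. Of the 22 probe sets, 17 in HEK293 and 19 in 143B had a mean log2 signal at or above the median of that cell line's values and were tested, and each of the 10 genes had at least 1 tested probe set in each line.

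The samples were 24 cultures in 8 groups of 3, all grown in high-glucose DMEM with uridine and pyruvate. The HEK293 cells, a human embryonic kidney line, carried a transgene for a dominant-negative form of the polymerase POLG, here called DN-POLG, that doxycycline switches on and that stops replication of mitochondrial DNA (mtDNA). AOX/NDI1 cells were HEK293 cells with the same DN-POLG transgene that also expressed a yeast NADH dehydrogenase, NDI1, and an alternative oxidase, AOX, which together oxidize NADH without the mtDNA-encoded respiratory chain, and were sampled on days 9 and 0 of doxycycline. DN-POLG cells without these enzymes were sampled on days 0, 3, 6 and 9, and each later day was compared with day 0. The last pair was 143B osteosarcoma cells, 143B rho0, which had lost their mtDNA chronically and represent a single line, and 143B rho+, which had kept it. In the HEK293 lines a replicate was a separate round of culture, carried from a starter culture through all its days, with the flasks of days 6 and 9 pooled. The study's methods describe replicates as biologically independent without saying how those of 143B were separated.

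Polyamines are small, positively charged molecules that bind nucleic acids and are needed for growth. Ornithine decarboxylase, ODC1, makes putrescine from ornithine, and AMD1 decarboxylates S-adenosylmethionine to supply the aminopropyl groups that SRM and SMS add to form spermidine and spermine, so synthesis draws on the methionine cycle. SAT1 acetylates spermidine and spermine, which marks them for export or for oxidation by PAOX, while SMOX oxidizes spermine directly. Antizymes, encoded by OAZ1 and OAZ2, bind ODC1 and deliver it to the proteasome, and AZIN1 is an ODC1-like protein without enzyme activity that captures antizyme. ODC1, AMD1, SAT1 and the antizymes are controlled to a large part at translation and protein turnover, which an mRNA array does not measure.

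A POLG probe set (217635_s_at) read 447 to 4035 on day 9 and 197 to 274 on day 0 in AOX/NDI1 cells, and 2834 to 4739 on day 9 and 280 to 421 on day 0 in DN-POLG cells. Another, 203366_at, differed less, at 963 to 1327 on day 9 and 725 to 956 on day 0 in AOX/NDI1 cells. In DN-POLG cells 203366_at read 1019 to 1298 on day 9 and 643 to 1295 on day 0. The last POLG probe set, 217636_at, read at most 78.6. The mtDNA-encoded COX2 (1553570_x_at) read 12675 to 17194 on day 9 and 33823 to 37608 on day 0 in AOX/NDI1 cells, 10692 to 13797 on day 9 and 36646 to 57936 on day 0 in DN-POLG cells, and at most 44.7 in rho0 against at least 32704.5 in rho+ cells. Of the cell line markers, 4 of 5 for HEK293 (PAX2, EYA1, NEFL and LIN28B) and 6 of 6 for 143B were brighter in their own line, while NEFM and COL1A2 were below the filter in theirs. In bulk samples such as these, fewer cells of a kind and less RNA per cell cannot be told apart. The 3' to 5' signal ratio of ACTB, a measure of RNA integrity and amplification, was 8.92 on DN-POLG day 6 replicate 1 and 1.05 to 1.81 on the other 17 HEK293 arrays, while the 143B arrays had 5.53 to 8.12 without mtDNA (rho0) against 10.4 to 17.1 with it (rho+). The day 6 array was kept in every model unless stated.

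SAT1, the rate-limiting enzyme of polyamine breakdown, was higher on day 9 of mtDNA depletion in DN-POLG cells, with 2 of its 3 probe sets passing the test, and lower in rho0 than in rho+ 143B cells, with 3 of 3 passing. It lies on chromosome X at 23783173 to 23786210 (GRCh38.p14). The 250 bases before its RefSeq start site (chrX:23782923-23783172, plus strand) are shown because SAT1 carries the main result, and those before the start of SRM (chr1:11060019-11060268, minus strand) because SRM was the synthesis gene that passed in 143B cells.
SAT1: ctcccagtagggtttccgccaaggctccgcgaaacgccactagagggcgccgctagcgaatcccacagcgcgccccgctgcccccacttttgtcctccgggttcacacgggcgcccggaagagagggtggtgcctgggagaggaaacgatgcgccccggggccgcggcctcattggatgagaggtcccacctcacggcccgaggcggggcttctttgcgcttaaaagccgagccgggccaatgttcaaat
SRM: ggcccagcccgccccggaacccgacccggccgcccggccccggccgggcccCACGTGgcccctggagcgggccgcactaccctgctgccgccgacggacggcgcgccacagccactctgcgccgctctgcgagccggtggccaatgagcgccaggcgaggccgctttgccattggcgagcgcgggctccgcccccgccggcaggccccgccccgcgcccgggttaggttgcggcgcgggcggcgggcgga
Capitals mark the hexamer CACGTG, the E-box that MYC and related factors bind, which begins 199 bases before the SRM start. Neither window holds TGATGCA or its complement TGCATCA, the core of the element bound by ATF4 with C/EBP factors. RefSeq promoter windows of 300 bases, from 250 before to 50 after a start, were found for 7 of the 10 genes (10 windows, as ODC1 and AMD1 have several starts). CACGTG lay in 2 of these 10 windows, those of SRM and of a single ODC1 start, and in 7.26% of all 35116 windows. The other ODC1 window held none. TGATGCA lay in none of the 10 and in 2.63% of all windows. The search covered both strands, and a match or its absence describes these letters only.

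In DN-POLG cells the SAT1 signal at probe set 210592_s_at was 22371, 33884 and 18572 on day 0, 23382, 28324 and 14963 on day 3, 43700.5, 34468 and 28112 on day 6, and 54308, 42276 and 48482 on day 9. All 3 day 9 cultures lay above all 3 day 0 cultures, while the days 3 and 6 ranges overlapped that of day 0. The day 9 log2 fold change was 0.99 (SE 0.26, 1.99-fold), with an adjusted p of 0.0270 from limma across 22246 probe sets. Probe set 213988_s_at gave 51192, 37585 and 41248 on day 9, against 16386, 27778 and 13868 on day 0, a log2 fold change of 1.22 (SE 0.31, 2.33-fold, adjusted p = 0.0194). The third probe set, 203455_s_at, read 30554, 30411 and 37336 on day 9, against 25419, 16288 and 22079.6 on day 0, also without overlap, with a smaller log2 fold change of 0.64 (SE 0.27, adjusted p = 0.165) that did not pass. Of all probe sets, 8.74% were called on day 9 (2.41% higher and 6.33% lower), while 10.1% had day 9 values wholly above those of day 0 and 14% wholly below.

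On days 3 and 6 no SAT1 probe set passed. The log2 fold changes of the 3 probe sets were between -0.28 and -0.11 on day 3 and between 0.29 and 0.53 on day 6. At 203455_s_at they were -0.11 (SE 0.27) on day 3 and 0.29 (SE 0.27, adjusted p = 0.618) on day 6, where the replicate with the high ACTB ratio read 39571 and the other two 17548 and 24199.7. Without that replicate the day 6 log2 fold change was -0.021 (SE 0.23, adjusted p = 0.982). Both day 9 SAT1 calls were lost when DN-POLG day 0 replicate 1 or 3, or day 9 replicate 1 or 3, was left out, with adjusted p-values of 0.0568 to 0.0987 and log2 fold changes of 0.81 to 1.25. Without DN-POLG day 6 replicate 1 in the model both calls held and SMOX was called as well, with 12.6% of all probe sets called.

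**Figure D1:**
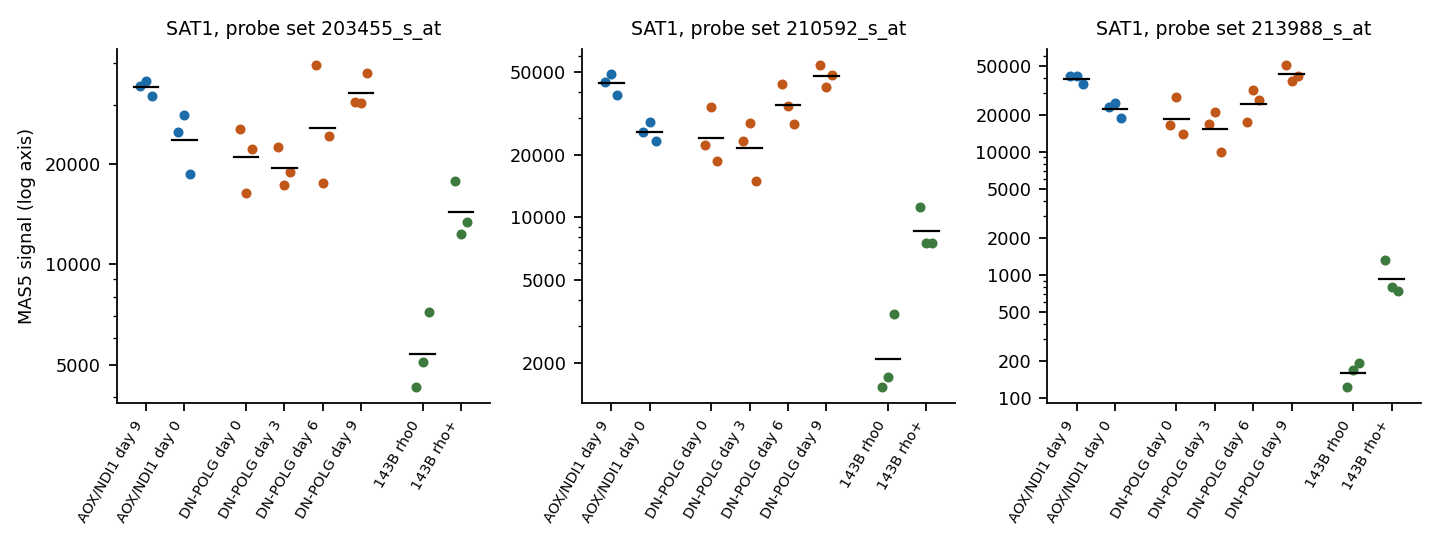
MAS5 signal of the 3 SAT1 probe sets on each array (points, log axis) with the geometric mean of each group (bar), for AOX/NDI1 days 9 and 0, DN-POLG days 0 to 9, and 143B rho0 and rho+. All day 9 arrays lie above the day 0 arrays of their own cells at each probe set, and all rho0 arrays lie below the rho+ arrays. Shares of all probe sets apart in the same direction are 10.1% in DN-POLG, 23.8% in AOX/NDI1 and 18.5% in 143B cells. Levels are not comparable between probe sets.

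In AOX/NDI1 cells SAT1 had the same direction without passing the test. At 210592_s_at the signal was 44967, 49101 and 38986 on day 9, against 25771, 28605 and 23374 on day 0. The ranges lay apart, as they did at the other 2 probe sets, but 23.8% of all probe sets had day 9 values wholly above day 0 in these cells, where replicates were closest (median SD 0.21 on day 9 and 0.14 on day 0, in log2 units, against 0.26 to 0.44 in DN-POLG cells). The log2 fold changes were 0.77 (SE 0.26, adjusted p = 0.0673), 0.82 (SE 0.31, adjusted p = 0.0910) and, at 203455_s_at, 0.52 (SE 0.27, adjusted p = 0.221). Without DN-POLG day 6 replicate 1 in the model, 210592_s_at passed (adjusted p = 0.0439) and the other 2 did not, with 18.2% of all probe sets called.

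AOX/NDI1 and DN-POLG cells differ in ectopic NADH oxidation, which cannot be told apart from other differences between them, such as the day 9 POLG range given above. Their SAT1 responses were compared by the difference between the day 9 responses, AOX/NDI1 minus DN-POLG. It was -0.12 (95% interval -0.92 to 0.68) at 203455_s_at, -0.22 (-1.01 to 0.57) at 210592_s_at and -0.39 (-1.31 to 0.52) at 213988_s_at, each with an adjusted p of 0.999. The 3 intervals all include a response 0.52 larger and one 0.92 smaller in AOX/NDI1 cells, so neither could be told apart from no difference with these arrays. No probe set of any gene passed this test (0% of 22246 called, 3.36% at an unadjusted p under 0.05). Before induction, SAT1 at 203455_s_at read 24871, 28004 and 18656 in AOX/NDI1 cells, against 25419, 16288 and 22079.6 in DN-POLG cells, and overlapped (log2 difference 0.17, SE 0.27, adjusted p = 0.941).

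In 143B cells the SAT1 signal at 213988_s_at was 124, 168 and 193 in rho0, against 1326, 796 and 742 in rho+. The log2 fold change was -2.54 (SE 0.31, 0.172-fold, adjusted p = 0.00685). Probe set 210592_s_at read 1533, 1711 and 3418 in rho0 and 11246, 7498 and 7513 in rho+ (log2 fold change -2.05, SE 0.36, adjusted p = 0.0165), and 203455_s_at read 4302, 5094 and 7180.2 in rho0 and 17691, 12303 and 13390.1 in rho+ (log2 fold change -1.40, SE 0.28, adjusted p = 0.0258). Every rho0 array lay below every rho+ array at all 3 probe sets. Of all probe sets, 7.82% were called (2.32% higher and 5.5% lower), and 18.5% lay wholly lower in rho0. The call at 213988_s_at held without any 1 of the 6 arrays (adjusted p = 0.00252 to 0.0342), while those at the other 2 were lost without any 1 array except rho0 replicate 3.

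The 3 SAT1 probe sets differed in how far they fell in rho0 cells. The signal of 213988_s_at divided by that of 203455_s_at on the same array was 0.0268 to 0.0329 in rho0 and 0.0554 to 0.0750 in rho+, and 0.445 to 1.82 on the 18 HEK293 arrays. A like gap between the lines was present at OAZ1, whose 215952_s_at to 200077_s_at ratio was 0.0460 to 0.0756 in 143B and 0.817 to 1.10 in HEK293. The lines also differed in the ACTB ratio given above, which was lower in rho0 than in rho+ cells. The 3' to 5' ratio of GAPDH overlapped, at 1.48 to 2.40 in rho0 and 1.75 to 2.91 in rho+. The part of these ratios in the SAT1 difference was not tested.

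The SAT1 differences in both settings of mtDNA loss were opposed in direction, and the gap between them passed a test chosen after these values were seen. The rho0 minus rho+ difference less the day 9 minus day 0 difference of DN-POLG cells was -2.04 (SE 0.38, adjusted p = 0.00200), -3.04 (SE 0.43, adjusted p = 0.000149) and -3.76 (SE 0.44, adjusted p = 1.87e-05) on the log2 scale at 203455_s_at, 210592_s_at and 213988_s_at, from limma over 24 arrays and 18939 probe sets tested in both lines, of which 10.1% were called (5.44% higher and 4.61% lower). SAT1 was the only member gene called in this test. Cell line, chronic against inducible loss, and the agent used cannot be told apart here. No group had doxycycline without the DN-POLG transgene, so day 9 against day 0 does not separate mtDNA loss from doxycycline or days in culture.

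The other enzymes that take polyamines apart were measured at lower signals. SMOX, spermine oxidase, read 411, 375 and 263 on day 0, 272, 398 and 264 on day 3, 982, 397 and 462 on day 6, and 569, 597 and 699 on day 9 in DN-POLG cells at 210357_s_at. The day 9 arrays all lay above the day 0 arrays, as they did at 10.1% of all probe sets. The log2 fold change was 0.85 (SE 0.29, adjusted p = 0.0843). In AOX/NDI1 cells the values were 542, 563 and 675 on day 9 and 349, 307 and 331 on day 0, with nearly the same log2 fold change (0.85, SE 0.29, adjusted p = 0.0683), and the difference between the 2 responses was -0.01 (95% interval -0.88 to 0.86). Neither passed, but without DN-POLG day 6 replicate 1, whose SMOX signal was the 982 given above, both did (adjusted p = 0.0132 in DN-POLG and 0.0107 in AOX/NDI1 cells, with 12.6% and 18.2% of all probe sets called). The dimmer SMOX probe set, 1555680_a_at, had log2 fold changes of 0.64 in AOX/NDI1 cells and 0.78 in DN-POLG cells (SE 0.60 each), neither of which passed. In 143B cells SMOX read at 210357_s_at 307, 383 and 907 in rho0 and 602, 569 and 584 in rho+, and overlapped.

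PAOX, which oxidizes the acetylated polyamines that SAT1 makes, had 1 tested probe set in HEK293 and 2 in 143B. At 238333_s_at its signal was 55 to 394 on the 18 HEK293 arrays, and its log2 fold changes ranged from -0.49 to 0.22 across the DN-POLG days and AOX/NDI1 day 9, each with an SE of 0.60. In rho0 cells it read 338, 455 and 71.1, against 154, 210 and 197 in rho+. The rho0 values lay on both sides of the rho+ values. Without rho0 replicate 3, whose values were 907 for SMOX and 71.1 for PAOX, SMOX passed as lower and PAOX as higher in rho0, with 26.3% of all probe sets called. The other PAOX probe sets read at most 157 on any array.

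**Figure D2:**
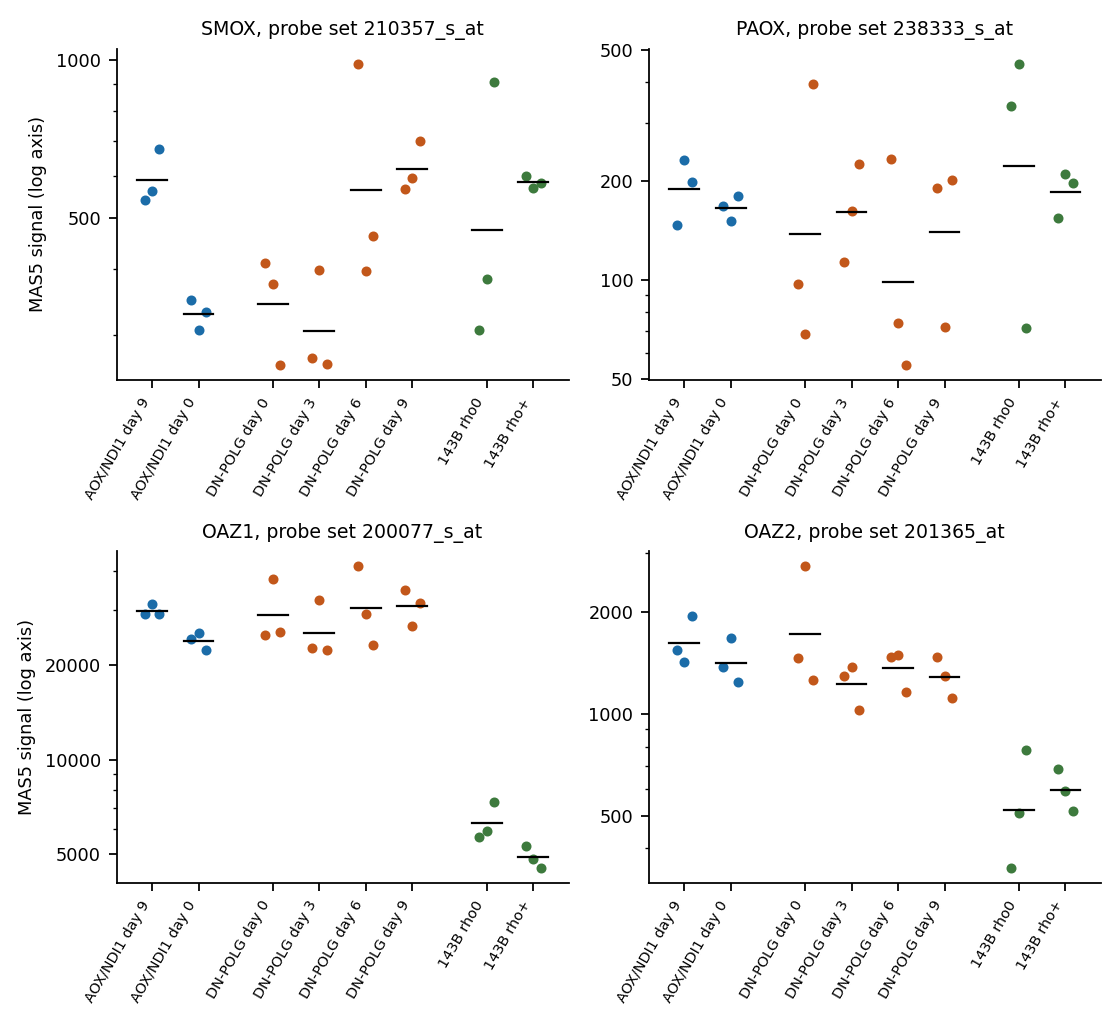
MAS5 signal on each array (points, log axis) with the geometric mean of each group (bar) for SMOX, PAOX, OAZ1 and OAZ2 at the probe set with the highest mean log2 signal over all arrays, in the same 8 groups. All SMOX day 9 arrays lie above the day 0 arrays in both HEK293 lines, where neither difference passed. Day 9 lies wholly above day 0 at 10.1% of all probe sets in DN-POLG and 23.8% in AOX/NDI1 cells. PAOX is spread widely within groups. OAZ1 lies higher without overlap on AOX/NDI1 day 9 than on day 0 and in rho0 than in rho+, and did not pass. In 143B cells 14.5% of all probe sets lie wholly higher in rho0. OAZ2 overlaps between the compared groups.

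The antizymes did not pass in any comparison. OAZ1, the most widely expressed antizyme, read 29155, 31408 and 29129 on AOX/NDI1 day 9 and 24352, 25295 and 22401 on day 0 at 200077_s_at, which did not overlap (log2 fold change 0.32, SE 0.23, adjusted p = 0.421). Of all probe sets, 23.8% lay wholly higher on day 9 in these cells. In DN-POLG cells the day 9 log2 fold change of OAZ1 was 0.09 (SE 0.23). In rho0 against rho+ cells it was 0.36 (SE 0.23, adjusted p = 0.351), with signals of 5651, 5938 and 7355 in rho0 and 5317, 4834 and 4531 in rho+. These did not overlap either, where 14.5% of all probe sets lay wholly higher in rho0. OAZ2 read between 1029 and 2737 on the HEK293 arrays at 201365_at. Its log2 fold changes in DN-POLG cells were -0.49 on day 3, -0.33 on day 6 and -0.42 on day 9 (SE 0.26 each), and in AOX/NDI1 cells 0.20 on day 9, with a difference between the day 9 responses of 0.61 (95% interval -0.17 to 1.39).

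On the synthesis side, ODC1 did not pass at any day in HEK293 through mtDNA depletion. Its signal was 10839, 15314 and 15314 on day 0, 11581, 14973 and 11466 on day 3, 10379, 17960.4 and 14319.8 on day 6, and 16846, 13598 and 12099 on day 9 in DN-POLG cells. The log2 fold changes were -0.12, 0.02 and 0.04 on days 3, 6 and 9 (SE 0.23 each), and the 95% interval of the last was -0.44 to 0.52. AOX/NDI1 cells gave 12556, 11988 and 14634 on day 9 and 11282, 11943 and 13103 on day 0 (log2 fold change 0.11, SE 0.23, adjusted p = 0.810), and the difference between the responses was 0.06 (95% interval -0.62 to 0.74). At day 0 the AOX/NDI1 to DN-POLG difference was -0.18 (SE 0.23, adjusted p = 0.921). In 143B cells ODC1 read 4504, 3835 and 5424 in rho0, against 3116, 3436 and 1923 in rho+, without overlap. The log2 fold change was 0.73 (SE 0.30, adjusted p = 0.157) and did not pass, in a comparison where 14.5% of all probe sets lay wholly higher in rho0.

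SRM, spermidine synthase, rose in rho0 cells. It read 793, 904 and 963 in rho0, against 405, 261 and 338 in rho+, a log2 fold change of 1.42 (SE 0.25, 2.68-fold, adjusted p = 0.0183). The call was lost without rho0 replicate 1 or 2 or rho+ replicate 2 or 3 (adjusted p = 0.0547 to 0.0859). In AOX/NDI1 cells SRM read 4474, 3883 and 4278 on day 9 and 2829.8, 2776 and 2882 on day 0 (log2 fold change 0.57, SE 0.28, adjusted p = 0.212). In DN-POLG cells it read 5001, 3682 and 4802 on day 9 and 2547, 2996 and 5494 on day 0, so that the day 0 values lay on both sides of the day 9 values (log2 fold change 0.36, SE 0.28). The log2 response of SRM in 143B cells differed from that of DN-POLG cells by 1.07 (SE 0.39, adjusted p = 0.0821), which did not pass. Without DN-POLG day 6 replicate 1 this difference passed (adjusted p = 0.0422), with 14.2% of all probe sets called.

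SMS, spermine synthase, rose in AOX/NDI1 cells by day 9. Its signal was 18211, 17831 and 17574 on day 9, against 11955, 12867 and 10827 on day 0, a log2 fold change of 0.59 (SE 0.17, 1.51-fold, adjusted p = 0.0332). Of all probe sets, 12.4% were called in this comparison (2.62% higher and 9.78% lower), and 18.8% of all genes had a called probe set, against 1 higher and 1 lower of the 10 member genes. In DN-POLG cells SMS read 13096, 15948 and 14877 on day 9 and 13845, 11098 and 10311 on day 0 (log2 fold change 0.32, SE 0.17, adjusted p = 0.298), and the difference between the responses was 0.27 (95% interval -0.25 to 0.78). In 143B cells it read 2554, 2865 and 5121 in rho0 and 2427, 2792 and 2691 in rho+, and overlapped.

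AZIN1, the antizyme inhibitor, fell in AOX/NDI1 cells at 1 of 2 tested probe sets. At 212461_at it read 1748, 1475 and 1204 on day 9, against 3049, 3250.0 and 3839 on day 0, a log2 fold change of -1.21 (SE 0.36, 0.434-fold, adjusted p = 0.0368). At 201772_at it read 3183, 3165 and 2662 on day 9 and 3936, 3539 and 4460.4 on day 0, with a log2 fold change of -0.40 (SE 0.32, adjusted p = 0.455). These values were also apart, but 29% of all probe sets lay wholly lower on day 9 in these cells. In DN-POLG cells the day 9 log2 fold changes at 212461_at and 201772_at were -0.47 (SE 0.36) and 0.29 (SE 0.32). The differences between the responses were -0.74 (95% interval -1.81 to 0.33) and -0.69 (-1.65 to 0.26). The SMS and AZIN1 calls in AOX/NDI1 cells were both lost without any 1 of the 6 arrays compared (adjusted p = 0.0639 to 0.148 for SMS and 0.0547 to 0.137 for AZIN1). SMS was also not called after quantile normalization, nor AZIN1 with every array set to one median, and neither was called with the replicate number as a block (adjusted p = 0.0813 for SMS and 0.0757 for AZIN1). In 143B cells AZIN1 had log2 fold changes of 0.64 to 0.80 at its 3 tested probe sets, the largest at 201772_at (2280.0, 2051 and 2874 in rho0 and 1250.2, 1219 and 1672 in rho+, adjusted p = 0.0926).

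AMD1, the S-adenosylmethionine decarboxylase, read lower on day 9 in AOX/NDI1 cells at both probe sets without passing the test. At 201196_s_at the values were 1738, 2168 and 1797 on day 9 and 3139.8, 3176 and 3049.7 on day 0 (log2 fold change -0.72, SE 0.25, adjusted p = 0.0756), and at 201197_at the log2 fold change was -0.86 (SE 0.37, adjusted p = 0.140). All day 9 arrays lay below all day 0 arrays at both, as 29% of all probe sets did. In DN-POLG cells the day 9 log2 fold changes were -0.11 (SE 0.25) and -0.62 (SE 0.37), and the differences between the responses were -0.62 (95% interval -1.38 to 0.15) and -0.24 (-1.33 to 0.85). Without DN-POLG day 6 replicate 1, AMD1 (201196_s_at, adjusted p = 0.0221) and SAT1 (210592_s_at, adjusted p = 0.0439) also passed in AOX/NDI1 cells. With SMS, AZIN1 and SMOX this gave 5 called member genes, beside 18.2% of all probe sets called.

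**Figure D3:**
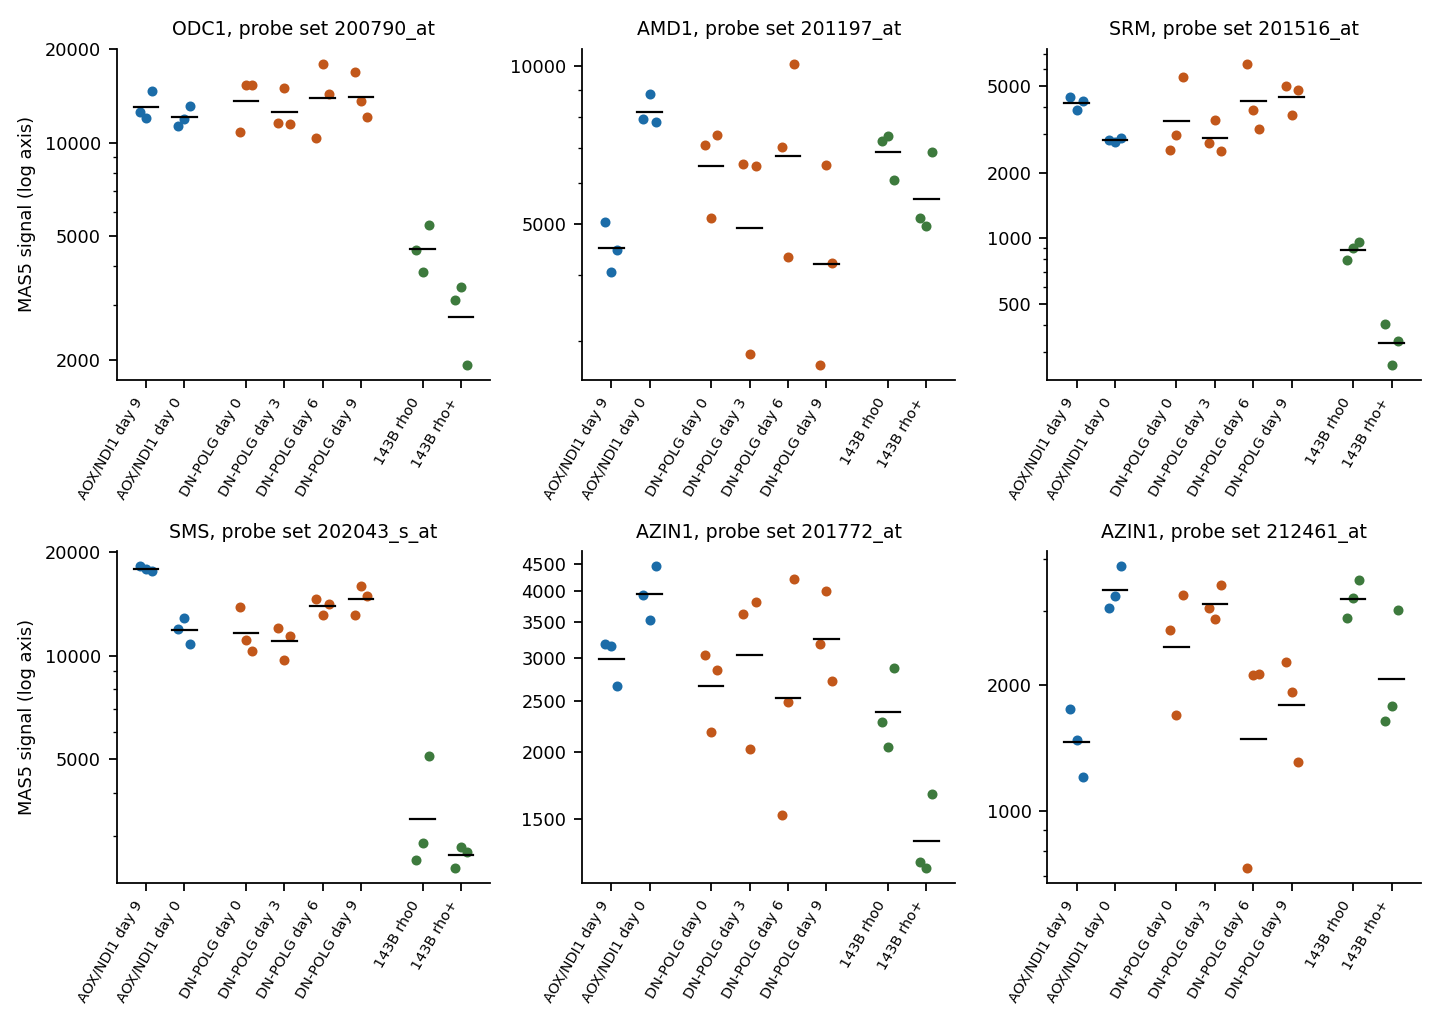
MAS5 signal on each array (points, log axis) with the geometric mean of each group (bar) for ODC1, AMD1, SRM, SMS and 2 probe sets of AZIN1, in the same 8 groups. SMS is higher and AZIN1 at 212461_at lower on AOX/NDI1 day 9 than on day 0, SRM is higher in rho0 than in rho+, and ODC1 overlaps between days in HEK293.

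By arm, the 7 synthesis probe sets tested in HEK293 had a median log2 fold change of 0.04 on DN-POLG day 9 (4 above and 3 below 0) and -0.40 on AOX/NDI1 day 9 (3 above and 4 below 0), and the 10 probe sets of the other arm 0.40 (8 above 0, 2 called higher) and 0.42 (10 above 0, none called). The medians of all probe sets tested were 0.01 on DN-POLG day 9 and -0.04 on AOX/NDI1 day 9. Among all probe sets, 50.7% lay above 0 and 2.41% were called higher on DN-POLG day 9, against 47% and 2.62% on AOX/NDI1 day 9. After quantile normalization the synthesis medians were -0.10 and -0.47 and those of the other arm 0.26 (6 above 0, 2 called) and 0.31 (9 above 0, 1 called), in the same order. There 53% and 52.1% of all 22246 probe sets lay above 0, with 641 and 833 called higher. With every array set to one median, AOX/NDI1 day 9 had 0.56 in the other arm (10 above 0, 2 called) beside 0.10 over all probe sets. In that setting 56.6% of all 22246 probe sets lay above 0 and 801 were called higher. In 143B cells the order was turned. All 8 synthesis probe sets lay above 0, with a median of 0.68 (1 called higher), while the 11 of the other arm had a median of -0.19 (4 above and 7 below 0, 3 called lower, all SAT1) beside -0.05 over all probe sets, of which 46.6% lay above 0. Of all probe sets, 2.32% were called higher and 5.5% lower. The ACTB 3' to 5' ratio was 5.53 to 8.12 in rho0 and 10.4 to 17.1 in rho+. Its part in this order and in the SRM difference was not tested. With every array set to one median instead, the 143B medians were 0.99 and 0.11 beside 0.26 for all probe sets, which turned the sign of the second arm, as quantile normalization also did (0.02), and left all 8 synthesis probe sets above 0, where 65.5% of all probe sets lay above 0 with one median. These counts and medians include several probe sets of 1 gene and are descriptions.

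**Figure D4:**
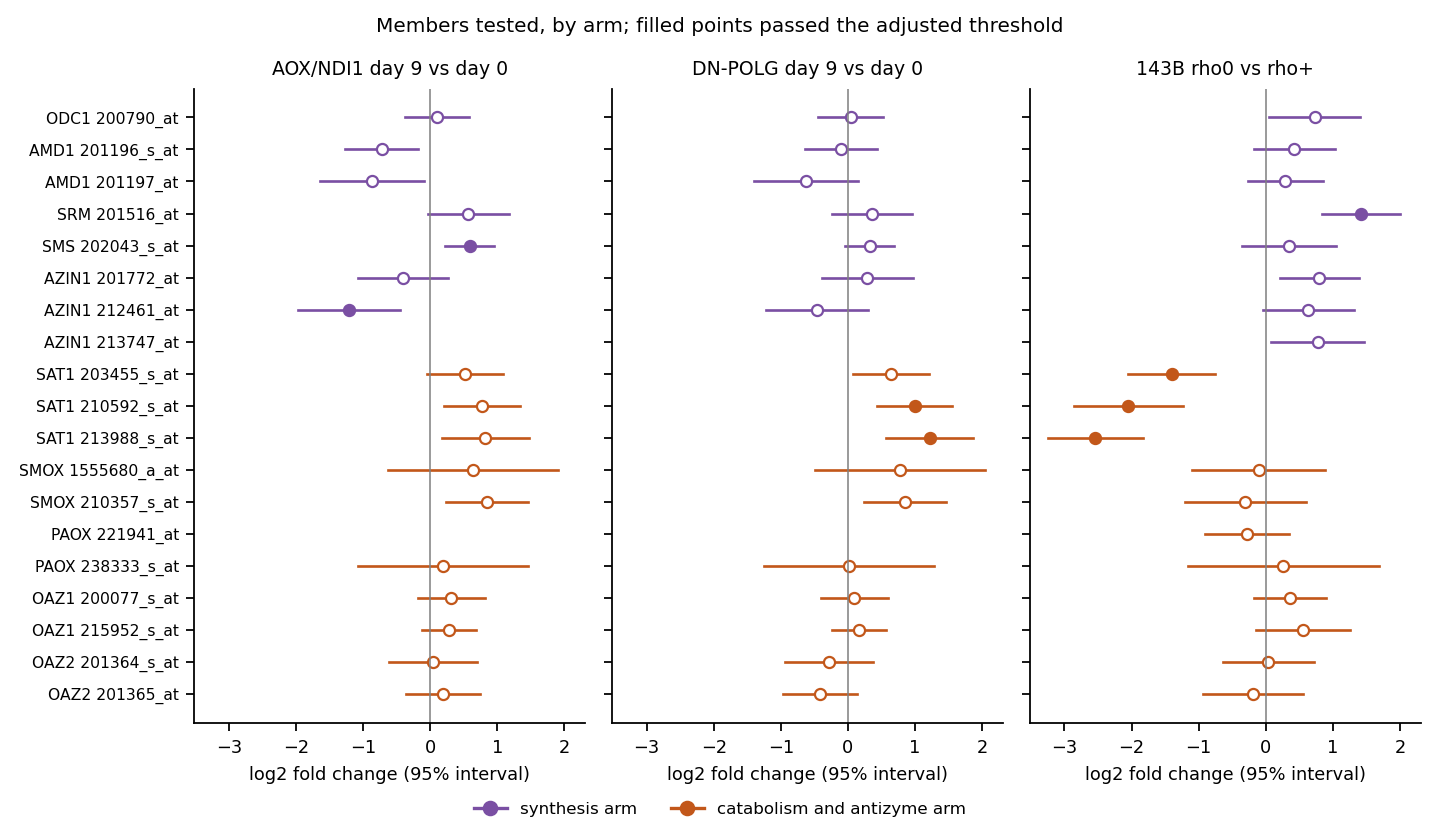
Log2 fold change (point) with its 95% interval (line) for each tested member probe set in AOX/NDI1 day 9 against day 0, DN-POLG day 9 against day 0, and 143B rho0 against rho+; filled points have an adjusted p of at most 0.05. The 3 SAT1 probe sets lie above 0 in both HEK293 panels and below 0 in 143B, where the 8 synthesis probe sets lie above 0.

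On days 3 and 6 none of the 17 member probe sets tested in DN-POLG cells passed. Of all probe sets, 0% were called by limma on day 3 and 1.56% on day 6 (2.68% and 16.2% at an unadjusted p of at most 0.05). The smallest unadjusted p among members was 0.0801 on day 3 (OAZ2, 201365_at) and 0.0247 on day 6 (SMOX, 210357_s_at, log2 fold change 0.72). That SMOX value was 0.32 (SE 0.23, adjusted p = 0.589) without DN-POLG day 6 replicate 1. Between AOX/NDI1 and DN-POLG cells on day 0 no member passed either, with 0.0045% of all probe sets called (4.93% at an unadjusted p of at most 0.05), and the log2 differences lay between -0.30 (SRM) and 0.57 (AZIN1, 201772_at).

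Of 24 further genes of polyamine supply, salvage, transport and use, 21 were tested in HEK293. Only MAT2A passed on day 9, in both HEK293 lines, beside 18.8% of all genes with a called probe set in AOX/NDI1 and 13.6% in DN-POLG cells. MAT2A, which makes S-adenosylmethionine, fell to 986, 1461 and 939 on AOX/NDI1 day 9, against 2147, 2981 and 3400.4 on day 0 (200768_s_at, log2 fold change -1.34, SE 0.37, adjusted p = 0.0268). In DN-POLG cells it read 2098, 2635 and 6257 on day 0, 2518, 1782 and 3865 on day 3, 1262, 1037 and 1603.5 on day 6, and 885, 1329 and 1071 on day 9 (day 9 log2 fold change -1.59, SE 0.37, adjusted p = 0.0130). Its second probe set, 200769_s_at, had log2 fold changes of -1.21 and -1.48 without passing (adjusted p = 0.125 and 0.0784). The antizyme partners, the methylthioadenosine salvage enzymes, the transporters and the hypusine genes, which modify the translation factor EIF5A with spermidine, had no call in HEK293. MYC, which drives ODC1 transcription, read 1297, 964 and 1196 on AOX/NDI1 day 9 and 2445, 3288 and 4100.2 on day 0 (log2 fold change -1.49, SE 0.53, adjusted p = 0.0793). In DN-POLG cells it read 1106, 631 and 4972 on day 0 and 1275, 1365 and 823 on day 9. Its log2 fold change there was -1.49 on day 6 (SE 0.53, adjusted p = 0.174) and -0.43 on day 9 (SE 0.53, adjusted p = 0.721). The difference between the day 9 responses was -1.06 (SE 0.75, adjusted p = 0.999). Before induction MYC differed by 1.08 between AOX/NDI1 and DN-POLG cells (SE 0.53, adjusted p = 0.900).

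In 143B cells 19 of the 24 were tested and 2 passed, beside 11.6% of all genes. ARG2, the mitochondrial arginase that forms ornithine, fell to 408, 501 and 978 in rho0, against 3677, 3638 and 1882 in rho+ (203946_s_at, log2 fold change -2.33, SE 0.41, adjusted p = 0.0166). DOHH, which completes the hypusine modification, rose to 892, 997 and 691 in rho0, against 462, 422 and 281 in rho+ (log2 fold change 1.16, SE 0.28, adjusted p = 0.0455). MAT2A read 9966, 9906 and 3361 in rho0 and 5308, 5529 and 5976 in rho+, and overlapped.

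Across the 18 HEK293 arrays, the probe sets whose log2 signal followed SAT1 at 203455_s_at most closely belonged to IFNGR1 (242903_at, Pearson's r = 0.93), TBCA (203667_at, 0.91) and METRN (232269_x_at, 0.91). Those closest to ODC1 belonged to TPGS2 (0.88), CORO1C (0.87) and NCBP2AS2 (0.87). These values describe arrays that share groups and scaling, and the highest of 22246 correlations are high by selection.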

How the data were processed

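Total RNA of 24 cultures was amplified with a 3' IVT kit and hybridized to HG-U133 Plus 2.0 arrays. The authors made MAS5 signals in Affymetrix Expression Console and deposited these intensities on a linear scale; each array has a trimmed mean of 500.1 (outer 2% left out), and the scaling target is not given in the sources used here. Log2 was taken with nothing added, and no further normalization was applied. The number of arrays limits the precision.

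The platform annotation gives a single symbol for 41097 of the 54675 probe sets, more than 1 for 1801 and no symbol for 11777; 41043 were matched to RefSeq by Entrez ID with 0 symbols changed. Probe sets with a mean log2 signal at or above the median of the cell line's values (66.9 for HEK293 and 87.8 for 143B as signals) were tested, 22246 and 22511 in number.

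Groups came from the sample titles. One limma model (limma 3.58.1, R 4.3.3) covered the 18 HEK293 arrays and another the 6 143B arrays, with Benjamini-Hochberg adjustment over all probe sets tested and a threshold of 0.05; intervals are 95%. The code was tested on simulated data. A test of the 143B against the DN-POLG response over all 24 arrays, a filter at the median of probe set means and a model without DN-POLG day 6 replicate 1 were added after seeing the data. Replicate numbers paired the samples, by correlated deviations from the group means, in DN-POLG day 3 against day 0 (0.35 to 0.53 for the 3 pairs) and day 6 against day 0 (0.17 to 0.22), with 0 member genes called with or without the block.

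Members, marker and pathway lists were chosen with earlier results of these data known. A gene is represented by its probe set with the highest mean log2 signal over 24 arrays. Full statistics are given for called members, and for SAT1 and ODC1 in every comparison, and the other pathway genes are named where they passed; the further member values, MYC and the probe set ratios were chosen after their values were seen. Sequences are from RefSeq (GRCh38.p14). Alternatives were quantile normalization, one median for all arrays, other filters, log2(signal + 16), a replicate block, analysis of variance as in the methods, averaged probe sets, other sets of arrays and leaving out each replicate.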

Additional observations from a re-analysis of the deposited data

Results flagged for a closer look

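The response of SAT1 differed between the 2 settings of mtDNA loss at all 3 of its probe sets. The log2 difference of the responses, 143B rho0 minus rho+ less DN-POLG day 9 minus day 0, was -2.04 at 203455_s_at, -3.04 at 210592_s_at and -3.76 at 213988_s_at. The test, limma over 24 arrays, was chosen after these values were seen, so its p-values are no separate support for the difference. The adjusted p-values were 0.00200, 0.000149 and 1.87e-05, and at most 0.0125, 0.00527 and 0.00118 under the alternatives run on the same arrays. Each rho0 array lay below each rho+ array and each day 9 array above each day 0 array. Wholly lower rho0 values were found at 18.5% of all probe sets, and wholly higher DN-POLG day 9 values at 10.1%. The lines also differed in ACTB 3' to 5' ratio (5.53 to 17.1 on the 6 143B arrays, 1.05 to 8.92 on the 18 HEK293 arrays), and its part was not tested.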

How the results depend on the processing

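The number of member genes called was 1 of 10 on DN-POLG day 9 (SAT1), 2 on AOX/NDI1 day 9 (SMS and AZIN1) and 2 in 143B (SRM and SAT1). Of all genes tested, 13.6%, 18.8% and 11.6% were called in these comparisons. The share called over everything tested moved with the setting, so a count of members is not comparable between settings. That share was 2.01% to 21.8% on DN-POLG day 9, 4.35% to 34.6% on AOX/NDI1 day 9 and 0.413% to 26.3% in 143B cells. The cause of each change below was not tested. With no filter on dim probe sets the counts were 0, 0 and 1. With only the arrays compared they were 0 on DN-POLG day 9 and 6 on AOX/NDI1 day 9, the 6 beside 34.6% of all probe sets. By the methods' analysis of variance at an unadjusted p they were 2 on DN-POLG day 6, 3 on day 9 and 5 on AOX/NDI1 day 9, beside 15.8%, 21.8% and 26.5% of all probe sets, and after Benjamini-Hochberg 1 on AOX/NDI1 day 9 and 0 in 143B. With every array set to one median 143B had 4, beside 1713 higher and 768 lower calls among all 22511 probe sets tested. With all 24 arrays in one model AOX/NDI1 day 9 had 1 (AZIN1). With the replicate block AOX/NDI1 day 9 had 0 and 143B had 1 (SAT1), where numbers were not shown to mark a shared round, and SAT1 stayed called on DN-POLG day 9; the block, being nested in the cell line, could not be fitted for AOX/NDI1 against DN-POLG on day 0, and was not run for the difference between the 143B and DN-POLG responses. Leaving out 1 array gave 0 to 2 on DN-POLG day 9 and 0 to 5 on AOX/NDI1 day 9. The 2 and the 5 came without DN-POLG day 6 replicate 1, beside 12.6% and 18.2% of all probe sets. In 143B leaving out 1 array gave 1 to 4. The 4 (PAOX, SAT1, SMOX and SRM) came without rho0 replicate 3, beside 26.3% of all probe sets. In the difference between the 143B and DN-POLG responses 1 gene (SAT1) was called, beside 15.2% of all genes. With one median 2 were called (SAT1 and SRM), beside 1631 higher and 500 lower calls among 18939 probe sets. The unadjusted analysis of variance gave 4 (25.4% of all probe sets), and leaving out 1 array gave 1 to 2. The second gene was SRM without DN-POLG day 0 replicate 1 or day 6 replicate 1, and SMOX without rho0 replicate 3.

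Over all probe sets, AOX/NDI1 day 9 had 582 higher and 2176 lower calls, 833 and 1615 after quantile normalization and 801 and 1274 with one median, and 143B had 522 and 1238, 748 and 1007, and 1713 and 768. Calls over all probe sets numbered 347 on DN-POLG day 6 (2 to 987 under the alternatives with adjusted p-values), 1944 on DN-POLG day 9 (448 with only the arrays compared), 2758 on AOX/NDI1 day 9 (7693) and 1760 in 143B (93 by the adjusted analysis of variance, 749 with the block, 451 with no filter and 5910 without rho0 replicate 3). On DN-POLG day 3, for the difference of the day 9 responses and for AOX/NDI1 against DN-POLG on day 0, no member gene was called under the settings run. Values near 0 changed sign. Under quantile normalization the log2 fold change was 0.032 for SAT1 (203455_s_at) and 0.020 for ODC1 on DN-POLG day 3, and for ODC1 -0.10 on DN-POLG day 9, -0.13 on AOX/NDI1 day 9 and -0.036 for the difference of these responses. Without 1 array SAT1 ranged from -0.29 to 0.032 on day 3, from -0.021 to 0.57 on day 6, from -0.28 to 0.064 for the difference and from -0.011 to 0.34 for AOX/NDI1 against DN-POLG on day 0, and ODC1 from -0.16 to 0.23 on day 6, from -0.12 to 0.15 on day 9 and from -0.043 to 0.23 for the difference.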

Other observations

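The 2 tested AZIN1 probe sets moved apart during mtDNA depletion in both HEK293 lines, a pattern picked out after the values were seen and given without a test. The signal of 212461_at divided by that of 201772_at on the same array was 0.452 to 0.549 on AOX/NDI1 day 9 and 0.775 to 0.918 on day 0. In DN-POLG cells it was 0.778 to 1.15 on day 0, 0.840 to 1.42 on day 3, 0.478 to 0.848 on day 6 and 0.480 to 0.713 on day 9. In 143B cells it was 1.24 to 1.57 in rho0 and 1.31 to 1.81 in rho+. The ACTB 3' to 5' ratio on day 9 was 1.27 to 1.52 in AOX/NDI1 and 1.06 to 1.77 in DN-POLG cells, and on day 0 it was 1.14 to 1.18 and 1.08 to 1.75.

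SAT2, a paralogue of SAT1, read lower in rho0 than in rho+ 143B cells (mean signals of 477 in rho0 and 907 in rho+) without passing (adjusted p = 0.163), and had a log2 fold change of 0.32 on DN-POLG day 9 (adjusted p = 0.415). ARG2 (203946_s_at), lower in rho0, had log2 fold changes of 0.43 on AOX/NDI1 day 9 and 0.47 on DN-POLG day 9, neither of which passed (adjusted p = 0.247 and 0.253). Its other probe set, 203945_at, had -0.30 on AOX/NDI1 day 9 (adjusted p = 0.365) and 0.30 on DN-POLG day 9 (adjusted p = 0.438). The difference between the 143B and the DN-POLG responses passed for SAT2, at -1.32 (adjusted p = 0.0483), and for ARG2, at -2.80 (203946_s_at, adjusted p = 0.000418), and also passed at 1.90 for MAT2A (200768_s_at, adjusted p = 0.0368) and 1.44 for DOHH (adjusted p = 0.0313), from the limma test added after seeing the data. These 4 genes were those that passed among 19 further pathway genes tested in both lines, beside 15.2% of all genes.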
